A study of Mus musculus with 12 samples.

Results

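The genes described here are 10 members of the Hippo pathway in cultured mouse endometrial cells: the coactivators Yap1 and Wwtr1 (the gene for TAZ), the DNA-binding factors Tead1, Tead2, Tead3 and Tead4, the kinases Lats1 and Lats2, and the scaffold genes Amotl2 and Ajuba. They were chosen by name, and all 10 were found among the 55385 gene identifiers of the deposited tables. These genes and the lists below were chosen with earlier results of these data known. RNA sequencing covered 12 libraries of C57BL/6 origin in 3 groups of 4: primary cultured cells of normal endometrium (title code B6, called normal below) and 2 endometrial cancer lines, mECC (code DM) and HPmECC (code WT). By the design text the cancer lines were with or without Myc overexpression. The labels name neither the line that carries it nor any other allele, and they leave the codes unexplained. No ages, passage numbers or clone numbers were given, and the source of replicate libraries (1 culture, several cultures or several mice) is not stated. Every p-value therefore sets a difference between groups against how far these libraries vary within them, and that spread may be technical.

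In the Hippo pathway the LATS kinases phosphorylate YAP and TAZ, which keeps these coactivators in the cytoplasm or sends them to degradation. When the kinases are less active, YAP and TAZ enter the nucleus and act through TEAD factors, because they do not bind DNA themselves. The pathway is known for reading cell density, cell polarity and the tension of the cytoskeleton, and several of its own inhibitors, LATS2 and AMOTL2 among them, are transcribed from YAP/TEAD target genes. Transcript levels do not report phosphorylation or localisation of these proteins, which were not measured here.

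Library totals ran from 16332060 to 26873582 estimated counts, and the 10 genes had between 124 and 11344 counts in every library, so that all 10 passed the filter on low counts in each group. The labelled cell types were compared with marker lists. The 10 epithelial markers summed to between 8893 and 9225 CPM (counts scaled to library size and between libraries) in normal cells, 1600 to 1640 CPM in mECC and 309 to 325 CPM in HPmECC, where 5 of the 10 lay under 1 CPM. Mesenchymal markers summed to between 5706 and 6763 CPM in normal cells, 11674 to 13177 in mECC and 15976 to 18212 in HPmECC. The normal cultures also held smooth muscle (2276 to 2743 CPM), leukocyte (245 to 261 CPM), endothelial (109 to 122 CPM) and mesothelial (444 to 486 CPM) markers. In the lines the sums of these 4 lists were at most 53.6, 13.9, 4.15 and 42.1 CPM in mECC and 247, 20.0, 7.71 and 11.1 CPM in HPmECC. Every comparison with normal cells below is therefore also one between cultures of different cell content, whose part in the results was not tested. In such bulk RNA, fewer cells of a type cannot be told apart from less RNA of a gene per cell.

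Most of the genes fell in the cancer lines, and 2 rose. Against normal cells 8 of the 10 were lower and 2 (Tead2 and Tead3) higher in mECC, where 44.2% and 42.1% of all genes tested were, and the same 8 and 2 were lower and higher in HPmECC, where 43.3% and 43% were. All 10 passed the test in each comparison (edgeR quasi-likelihood test, Benjamini-Hochberg adjusted p below the threshold of 0.05 over 15283 genes), where 86.3% of all genes tested passed in mECC and 86.4% in HPmECC. All 10 also had libraries that did not overlap those of normal cells, as did 82.3% of all genes in mECC and 81.7% in HPmECC. The counts of calls therefore say little. The sizes of the changes are set beside those of all genes as a description only, because the 10 genes were chosen with earlier results of these data known. A change of at least 2-fold was seen for 6 of 10 in each comparison (Tead1, Tead4, Lats2, Amotl2 and Ajuba lower in both, Tead3 higher in mECC and Tead2 in HPmECC), where the background was 41.2% in mECC and 41.5% in HPmECC. The median log2 fold change of the 10 was -1.37 in mECC and -1.01 in HPmECC, and that of all genes tested was -0.02 and 0.00. Tead1, Tead4, Lats2 and Ajuba were at least 4-fold lower in mECC (background 14%), and Tead4, Lats2 and Ajuba were in HPmECC (background 14.6%). Between the lines, 7 of the 10 were higher (background 33.8%) and 1 lower (background 34.5%) in HPmECC than in mECC, with 68.3% of all genes called, and 7 had libraries that did not overlap (background 63%). In this comparison 0 of the 10 reached 2-fold (background 16.1%). The comparisons with normal cells share the same 4 normal libraries, so their values are given side by side and are not independent of each other.

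**Figure D1:**
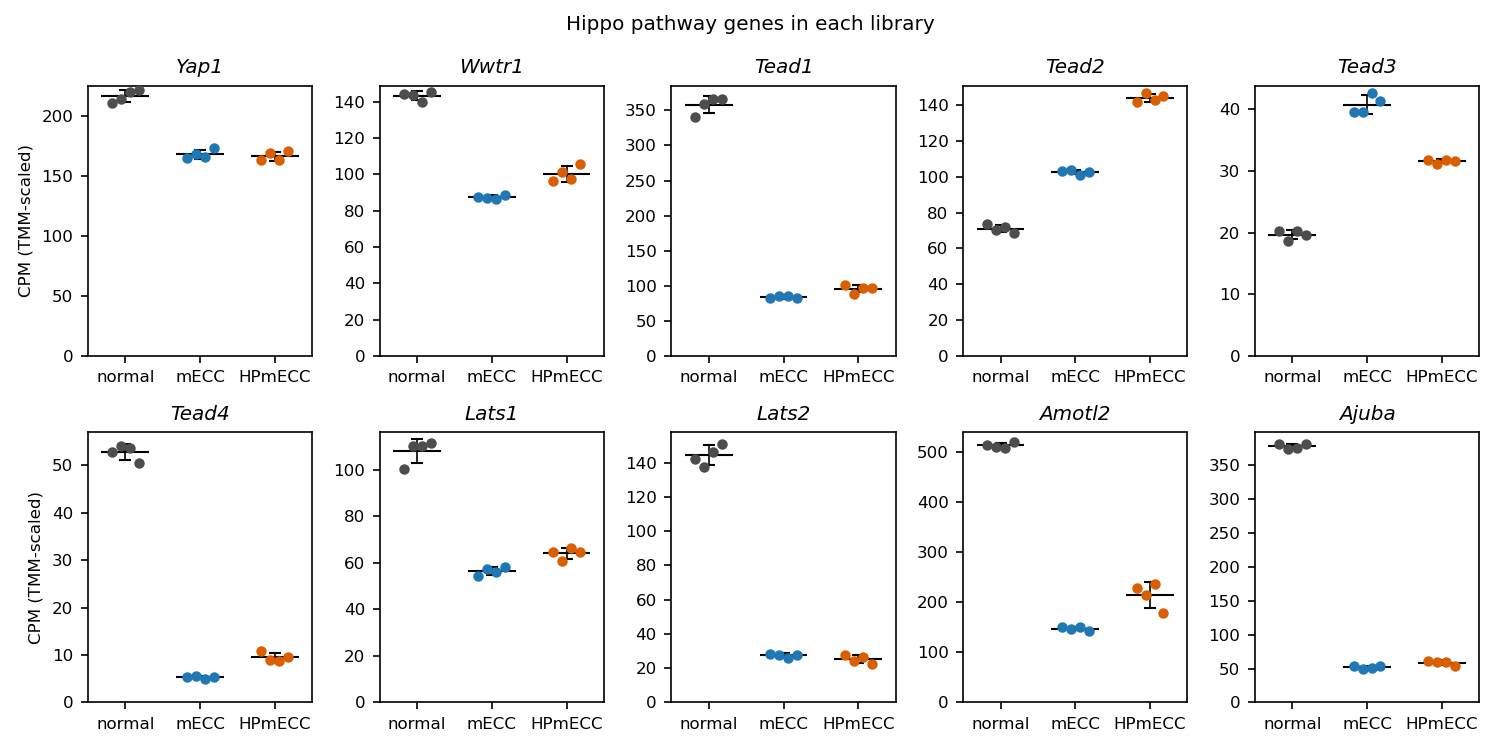
Level of each of the 10 Hippo pathway genes in every library, in CPM on linear axes that start at 0; points are libraries, horizontal lines are group means and error bars are SD over 4 libraries. Ajuba lies between 374 and 381 CPM in normal cells and at 61.3 CPM or less in both lines, while Tead2 and Tead3 are the members whose normal libraries are the lowest.

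Of the 10 genes, the coactivator gene Yap1 had the smallest change against normal cells in both lines. Yap1 (ENSMUSG00000053110, chromosome 9 at 7931999 to 8004596 of GRCm38) had 211, 214, 221 and 222 CPM in the normal libraries, 165, 169, 166 and 174 CPM in mECC and 163, 169, 164 and 171 CPM in HPmECC. The 4 normal libraries were all above the 8 of the lines, and the lines overlapped each other. Yap1 was 1.29-fold lower in mECC (edgeR log2 fold change -0.37, SE 0.03, adjusted p = 3.38e-10) and lower by about as much in HPmECC (-0.38, SE 0.03, edgeR adjusted p = 2.05e-10) than in normal cells. Between the lines no difference in counts was called (edgeR log2 fold change -0.01, SE 0.03, adjusted p = 0.696). On the TPM scale, which also takes account of transcript length, Yap1 stood at 84.8 ± 3.25 TPM in mECC and 76.0 ± 1.71 TPM in HPmECC (SD, n = 4), and limma on log2(TPM + 1) called it lower in HPmECC (-0.16, limma adjusted p = 7.61e-04). The Yap1 transcript length implied by counts over TPM was 107% of that of normal cells in HPmECC, without overlap between these libraries. In mECC it was 101%, with overlap. The size of the HPmECC shift was at percentile 82.5 among 9336 genes, and its part in the TPM result was not tested.

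Wwtr1 (ENSMUSG00000027803, chromosome 3 at 57455649 to 57575910), whose product TAZ shares YAP's role, fell somewhat more and differed between the lines. Its level was 144, 144, 140 and 146 CPM in normal cells, 87.8, 87.2, 86.5 and 88.6 CPM in mECC and 96.2, 102, 97.2 and 106 CPM in HPmECC. No libraries of different groups overlapped. It was 1.64-fold lower in mECC (edgeR log2 fold change -0.71, SE 0.03, adjusted p = 7.84e-14) and 1.43-fold lower in HPmECC (-0.52, SE 0.03, edgeR adjusted p = 1.10e-11) than in normal cells, and 1.15-fold higher in HPmECC than in mECC (0.20, SE 0.03, edgeR adjusted p = 2.06e-05). These small falls depend on scaling: with library totals in place of TMM factors the log2 fold changes against normal cells were -0.13 and -0.19 for Yap1 and -0.47 and -0.32 for Wwtr1 in mECC and HPmECC, while the median of all genes shifted to 0.22 and 0.20. Under that scaling 59.1% of the genes called in mECC against normal cells were higher, in place of 48.8%.

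Levels of different genes can be compared in TPM. Yap1 made up 67.3% ± 0.67 of the summed TPM of Yap1 and Wwtr1 in normal cells, against 71.9% ± 0.55 in mECC and 67.8% ± 0.71 in HPmECC (SD, n = 4). The mECC libraries (71.2% to 72.4%) lay above all others, and normal (66.6% to 68.2%) and HPmECC libraries (67.0% to 68.7%) overlapped. The summed level was 140 ± 1.44 TPM in normal cells, 118 ± 3.64 TPM in mECC and 112 ± 2.90 TPM in HPmECC, and the last 2 ranges overlapped.

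The TEAD factors, through which YAP and TAZ reach DNA, split into 2 genes that fell and 2 that rose. Tead1 (ENSMUSG00000055320, chromosome 7 at 112679318 to 112906807) went from 340, 359, 367 and 366 CPM in normal cells to 82.0, 85.7, 86.0 and 81.9 CPM in mECC and 101, 88.8, 97.4 and 96.1 CPM in HPmECC. Each of the 4 normal libraries thus held more than any library of the lines, and HPmECC lay narrowly above mECC. The fold was 4.27 lower in mECC (edgeR log2 fold change -2.09, SE 0.04, adjusted p = 6.60e-20) and 3.74 lower in HPmECC (-1.90, SE 0.04, edgeR adjusted p = 2.24e-19) than in normal cells. HPmECC was 1.14-fold above mECC (0.19, SE 0.04, edgeR adjusted p = 2.29e-04), a call that limma on log2(TPM + 1) did not make (0.08, limma adjusted p = 0.281).

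Tead4 (ENSMUSG00000030353, chromosome 6 at 128224288 to 128300823), a TEAD factor known for its part in the trophectoderm of the early embryo, had the largest fall of the 10 genes in mECC. It stood at 52.9, 54.2, 53.8 and 50.5 CPM in normal cells, 5.30, 5.52, 5.04 and 5.36 CPM in mECC and 10.9, 9.04, 8.76 and 9.58 CPM in HPmECC. The 3 groups did not overlap, with HPmECC between the other two. Tead4 was 9.95-fold lower in mECC (edgeR log2 fold change -3.31, SE 0.06, adjusted p = 2.01e-19) and 5.52-fold lower in HPmECC (-2.46, SE 0.06, edgeR adjusted p = 4.88e-18) than in normal cells. Between the lines it was 1.80-fold higher in HPmECC (0.85, SE 0.08, edgeR adjusted p = 1.09e-08), the largest difference between the lines among the 10.

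Tead2 (ENSMUSG00000030796, chromosome 7 at 45215753 to 45233644), which is known for high levels in the early embryo, rose in both lines. Its libraries held 73.7, 70.1, 71.7 and 68.9 CPM in normal cells, 103, 104, 101 and 102 CPM in mECC and 142, 147, 143 and 145 CPM in HPmECC. The order normal, mECC, HPmECC held without overlap. The rise was 1.45-fold in mECC (edgeR log2 fold change 0.53, SE 0.03, adjusted p = 2.51e-12) and 2.03-fold in HPmECC (1.02, SE 0.03, edgeR adjusted p = 7.56e-17), and HPmECC was 1.40-fold above mECC (0.49, SE 0.03, edgeR adjusted p = 1.43e-11). In TPM the normal libraries of Tead2 divided, with 74.3 and 70.6 TPM in replicates 1 and 2 and 57.9 and 55.6 TPM in replicates 3 and 4, although their CPM did not. The transcript length implied by counts over TPM varied more for Tead2 over the normal libraries than for any other member. The SD of its log2 was 0.18 for Tead2 and at most 0.05 for the others. The share of mitochondrial counts, a value of whole libraries and not of Tead2, divided the same libraries (0.82% and 0.85% against 1.20% and 1.28%). The part of either in the Tead2 TPM values was not tested.

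Tead3 (ENSMUSG00000002249, chromosome 17 at 28331671 to 28350817) rose as well and was highest in mECC. Levels were 20.2, 18.6, 20.3 and 19.6 CPM in normal cells, 39.5, 39.6, 42.6 and 41.4 CPM in mECC and 31.8, 31.1, 31.8 and 31.6 CPM in HPmECC, with no overlap. Tead3 was 2.07-fold higher in mECC (edgeR log2 fold change 1.05, SE 0.04, adjusted p = 3.01e-14) and 1.60-fold higher in HPmECC (0.68, SE 0.05, edgeR adjusted p = 4.16e-11) than in normal cells. It was the member called lower in HPmECC than in mECC (1.29-fold, edgeR log2 fold change -0.37, SE 0.04, adjusted p = 1.28e-07).

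**Figure D2:**
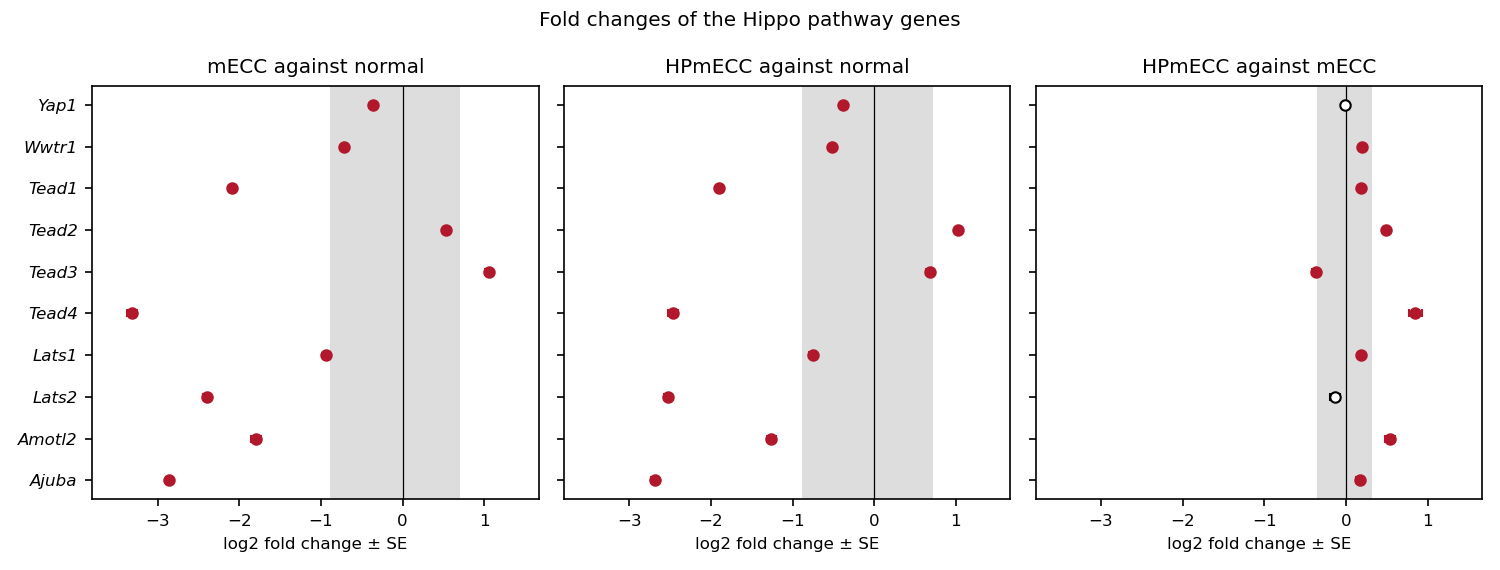
Log2 fold changes of the 10 genes in the 3 comparisons (horizontal axis, the first-named group over the second; bars are SE, often smaller than the points). Filled points passed the edgeR threshold, open points did not, and the grey band spans the lower to the upper quartile of all 15283 genes (-0.88 to 0.69 in mECC against normal cells). Tead1, Tead4, Lats2, Amotl2 and Ajuba lie below the band in both comparisons with normal cells, and Yap1 and Wwtr1 lie inside it.

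The make-up of TEAD transcripts thus differed between normal cells and the lines. Tead1 made up 40.7% ± 3.16 of the summed TPM of the 4 genes in normal cells, against 12.1% ± 0.86 in mECC and 10.7% ± 1.08 in HPmECC (SD, n = 4). Tead2 went from 35.9% ± 3.60 to 67.1% ± 0.99 and 74.9% ± 1.80 in the same order, and its lowest share in either line (66.3%) was above its highest in normal cells (39.9%). Tead4 made up 16.7% ± 0.45 in normal cells, against 2.20% ± 0.16 in mECC and 3.19% ± 0.33 in HPmECC. Tead3 made up 6.71% ± 0.58, 18.6% ± 0.48 and 11.2% ± 0.66. The sum over the 4 genes was 180 ± 8.01 TPM in normal cells, 163 ± 1.65 TPM in mECC and 197 ± 9.20 TPM in HPmECC. No library of mECC (161 to 165 TPM) overlapped either other group. The summed CPM of the 4 genes, in which long transcripts such as Tead1 weigh more, was 502 ± 10.5 CPM in normal cells, 233 ± 2.27 CPM in mECC and 281 ± 4.01 CPM in HPmECC, so the size of the change in the sum, and its direction in HPmECC, depended on the scale. The share of Tead1 in the lines overlapped, and the shares of Tead2, Tead3 and Tead4 did not overlap between any groups.

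**Figure D3:**
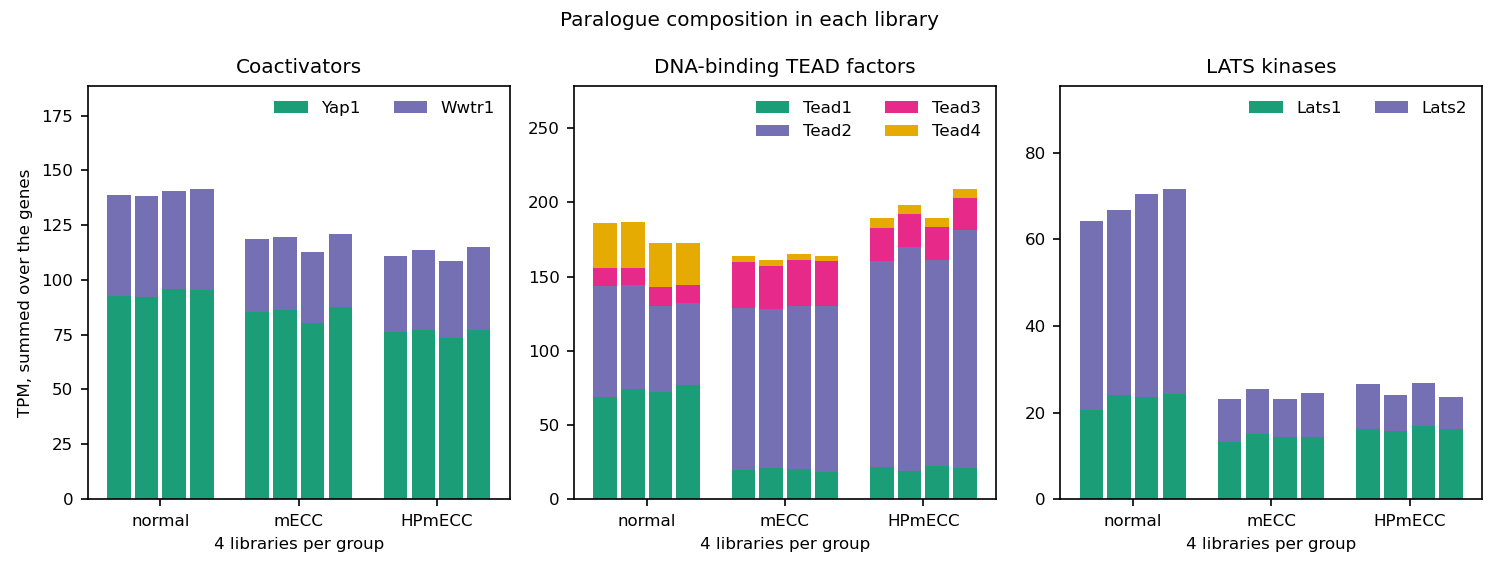
Stacked bars of TPM in each library (vertical axis, 4 libraries per group) for the coactivator genes, the TEAD genes and the LATS kinase genes. Tead2 fills 66.3% or more of each TEAD bar in the lines and at most 39.9% in normal cells, and the LATS bars are 64.4 to 71.6 TPM high in normal cells and at most 26.8 TPM in the lines.

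The LATS kinase genes both fell, and Lats2 fell by much more than Lats1. Lats1 (ENSMUSG00000040021, chromosome 10 at 7681214 to 7716460) had 100, 110, 110 and 111 CPM in normal cells, 54.3, 57.5, 55.9 and 58.0 CPM in mECC and 64.6, 61.0, 66.5 and 64.5 CPM in HPmECC. The groups did not overlap. Lats1 was 1.92-fold lower in mECC (edgeR log2 fold change -0.94, SE 0.04, adjusted p = 2.47e-14) and 1.69-fold lower in HPmECC (-0.76, SE 0.04, edgeR adjusted p = 6.74e-13) than in normal cells, and 1.14-fold higher in HPmECC than in mECC (0.18, SE 0.04, edgeR adjusted p = 4.15e-04). In HPmECC against normal cells limma on log2(TPM + 1) gave Lats1 a smaller fall, of -0.48.

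Lats2 (ENSMUSG00000021959, chromosome 14 at 57689662 to 57758388), itself a YAP/TEAD target, had 142, 137, 146 and 151 CPM in normal cells, 28.5, 27.6, 25.9 and 28.0 CPM in mECC and 27.6, 24.3, 26.6 and 22.2 CPM in HPmECC. The lowest normal library was far above the highest library of the lines, and the lines overlapped. The fall was 5.26-fold in mECC (edgeR log2 fold change -2.39, SE 0.05, adjusted p = 1.41e-18) and 5.76-fold in HPmECC (-2.53, SE 0.05, edgeR adjusted p = 7.68e-19). Between the lines Lats2 missed the threshold (edgeR log2 fold change -0.13, SE 0.06, adjusted p = 0.0565). Some other settings called it, for example median-of-ratios factors (-0.15, edgeR adjusted p = 0.0360) and DESeq2 (-0.14, adjusted p = 0.0461). Limma on log2(TPM + 1) did not call Lats2 (-0.12, limma adjusted p = 0.284). In edgeR Lats2 also passed without mECC replicate 3 (edgeR adjusted p = 0.0333), HPmECC replicate 1 (0.0124) or HPmECC replicate 3 (0.0402). Lats2 shares 2955 exonic bases with the gene model Gm49361 on the same strand, which held 0 to 21 counts per library, and such shared bases make the split of reads between them uncertain.

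Lats2 therefore changed places with Lats1 as the more abundant LATS transcript. It made up 66.2% ± 1.56 of their summed TPM in normal cells, against 41.0% ± 2.08 in mECC and 35.7% ± 3.20 in HPmECC (SD, n = 4). The lowest normal library had 64.1% and the highest library of the lines 42.9%, while mECC (38.1% to 42.9%) and HPmECC (31.6% to 39.0%) overlapped. The summed LATS level was 68.3 ± 3.36 TPM in normal cells, 24.1 ± 1.14 TPM in mECC and 25.3 ± 1.68 TPM in HPmECC.

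Among the scaffold genes, Ajuba had the largest fall of the 10 genes in HPmECC. Ajuba (ENSMUSG00000022178, chromosome 14 at 54567472 to 54577558) encodes a LIM domain protein of cell junctions that binds and restrains LATS kinases. It stood at 381, 374, 376 and 381 CPM in normal cells, 53.9, 49.7, 51.4 and 53.7 CPM in mECC and 61.3, 59.3, 60.4 and 53.5 CPM in HPmECC. The normal libraries were within a narrow range and far above the lines, and HPmECC replicate 4 fell inside the range of mECC. Ajuba was 7.25-fold lower in mECC (edgeR log2 fold change -2.86, SE 0.04, adjusted p = 1.13e-21) and 6.46-fold lower in HPmECC (-2.69, SE 0.04, edgeR adjusted p = 1.92e-21) than in normal cells. Between the lines it was 1.12-fold higher in HPmECC (0.17, SE 0.04, edgeR adjusted p = 0.00116), which limma on log2(TPM + 1) did not call (0.10, limma adjusted p = 0.0749).

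Amotl2 (ENSMUSG00000032531, chromosome 9 at 102716672 to 102733418) encodes an angiomotin that holds YAP at junctions and the cytoskeleton, and it had the highest CPM of the 10 genes in normal and HPmECC cells, while in mECC Yap1 was higher. It had 514, 511, 509 and 521 CPM in normal cells, 150, 146, 151 and 143 CPM in mECC and 229, 214, 237 and 179 CPM in HPmECC. No groups overlapped, and HPmECC replicate 4 was the lowest of its group. Amotl2 was 3.48-fold lower in mECC (edgeR log2 fold change -1.80, SE 0.06, adjusted p = 5.92e-16) and 2.39-fold lower in HPmECC (-1.26, SE 0.06, edgeR adjusted p = 1.10e-13) than in normal cells. HPmECC was 1.45-fold above mECC (0.54, SE 0.06, edgeR adjusted p = 1.35e-07), and without HPmECC replicate 4 the log2 fold change was 0.62.

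Because several of these genes and the target genes below moved together, the bases upstream of their starts were searched for the TEAD core motif, GGAATG or, on the other strand, CATTCC. Windows of 250 bases before each start came from RefSeq on GRCm38.p6 and matched 8 of the 10 genes (not Tead1 or Tead4), with 12 windows. The motif was present for 5 of these 8 genes (Yap1, Wwtr1, Tead3, Amotl2 and Ajuba) and in 7 of 12 windows. Of 32851 background windows of the same length, 12.6% held it. Windows of a whole chromosome, on which none of the 10 genes lies, were left out of that background. These shares are not alike, because that background is per window and some genes had several windows. The Wwtr1 windows overlap and hold the same site, which is thus counted again. The motif was absent from the Lats1, Lats2 and Tead2 windows, which says no more than that these letters are not there. The genes with a match both fell (Ajuba, Amotl2) and rose (Tead3). A match is a description of the letters and not evidence of binding. The AP-1 motif TGANTCA, which is known to lie beside TEAD motifs in enhancers, was in 0 of the 12 windows and in 6.75% of the background windows.

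Stretches of 30 bases around matches in 4 of the genes are printed on the strand of the gene, 5′ to 3′, with the motif in capitals, to show how its flanks differ.
Amotl2, chr9:102717727-102717756, plus strand: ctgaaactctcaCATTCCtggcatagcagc
Yap1, chr9:8004720-8004749, minus strand: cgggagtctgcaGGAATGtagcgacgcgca
Wwtr1, chr3:57576029-57576058, minus strand: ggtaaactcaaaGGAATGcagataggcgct
Tead3, chr17:28350706-28350735, minus strand: tccggccgggctCATTCCgtacattccggc
Tead3, chr17:28350970-28350999, minus strand: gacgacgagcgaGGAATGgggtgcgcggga
The matches lay between 65 bases (Amotl2) and 186 bases (Ajuba) upstream of a RefSeq start. Some of these windows overlap annotated exons. The window of the first Tead3 stretch held 217 exonic bases, and that stretch lies inside the annotated Tead3 gene. The Amotl2 window held 136 exonic bases and also lies inside the annotated gene. The first of the Tead3 stretches holds a further match 9 bases downstream, written in lower case there.

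Ajuba, the member with the largest fall in HPmECC, had both of its matches within the window printed whole here, which overlaps no annotated exon (chr14:54577662-54577911, minus strand, GRCm38).
Ajuba: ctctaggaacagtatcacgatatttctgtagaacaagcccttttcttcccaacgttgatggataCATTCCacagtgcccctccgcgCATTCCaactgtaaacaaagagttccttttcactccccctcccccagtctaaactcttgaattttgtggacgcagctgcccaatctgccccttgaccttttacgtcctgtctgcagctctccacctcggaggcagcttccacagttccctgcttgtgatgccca

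Genes that YAP and TAZ are known to activate changed in both directions, with a median below that of all genes. Of a list of 20 widely used targets, apart from Lats2 and Amotl2, 12 were lower and 6 higher in mECC than in normal cells (44.2% and 42.1% of all genes), and 14 were lower and 6 higher in HPmECC (43.3% and 43%). The median log2 fold change was -0.98 in mECC and -1.17 in HPmECC, beside -0.02 and 0.00 over all genes, and 10 and 12 of the 20 fell by at least 2-fold (background 22.8% and 23%). In the same order 4 and 3 rose by at least 2-fold, and 14 and 15 changed by that much in either direction (background 41.2% and 41.5%). Ptpn14 is counted here and again among the junction regulators below. Ccn2, a secreted matricellular protein and the usual reporter of YAP activity, stood at 1730 ± 79.5 CPM in normal cells, 217 ± 9.51 CPM in mECC and 174 ± 5.81 CPM in HPmECC (SD, n = 4). That is 7.97-fold lower in mECC (edgeR log2 fold change -3.00, SE 0.04, adjusted p = 7.91e-22) and 9.94-fold lower in HPmECC (-3.31, SE 0.04, edgeR adjusted p = 1.84e-22). Ccn1, its relative, had 1488 ± 23.9 CPM in normal cells, 299 ± 13.3 CPM in mECC and 347 ± 44.9 CPM in HPmECC, and Ankrd1, a muscle and stress response protein, had 244 ± 7.15, 78.6 ± 3.43 and 58.1 ± 6.91 CPM.

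Other target genes changed in both directions. F3, the coagulation initiator tissue factor, went from 2963 ± 80.3 CPM in normal cells to 137 ± 6.26 CPM in mECC (21.6-fold lower) and 70.3 ± 1.52 CPM in HPmECC (42.1-fold lower). Nt5e, the enzyme CD73, had 437 ± 11.2 CPM in normal cells, 24.3 ± 1.02 CPM in mECC and 133 ± 3.68 CPM in HPmECC. Tgfb2, a TGF-beta ligand, rose instead, from 21.1 ± 4.29 CPM to 182 ± 10.5 CPM in mECC (8.75-fold) and 267 ± 6.76 CPM in HPmECC (12.9-fold). Ccdc80, a matrix protein, rose 2.72-fold in mECC, and Foxf2, a mesenchymal forkhead factor, rose 11.9-fold in HPmECC, to 11.2 ± 1.09 CPM. Each of these changes was called (edgeR adjusted p of 5.06e-15 or less), and the libraries of the lines did not overlap those of normal cells. In the same comparisons 6 of the 10 mesenchymal markers were higher and 4 (Col1a2, Dcn, Lum and Thy1) lower, so that the rise of their sum is not one of the whole list. All 5 mesothelial markers were lower in both lines, and 9 of 10 epithelial markers were lower in mECC (all but Krt19) and 10 of 10 in HPmECC. The part of these markers in the target genes was not tested.

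Between the lines the targets did not move one way. Of the 20, 8 were higher and 9 lower in HPmECC than in mECC (33.8% and 34.5% of all genes), with a median log2 fold change of -0.04. Nt5e (5.48-fold) and Foxf2 (4.13-fold) were higher. Rbms3, an RNA-binding protein, was 4.09-fold and Fjx1, a Golgi kinase, 2.27-fold lower. Of the usual reporters, Ccn1 was higher (edgeR log2 fold change 0.22, SE 0.06, adjusted p = 0.00462), with overlapping libraries and no call from limma on log2(TPM + 1) (adjusted p = 0.109). Ccn2 (-0.32, SE 0.04, edgeR adjusted p = 4.88e-07) and Ankrd1 (-0.44, SE 0.06, edgeR adjusted p = 2.75e-06) were lower.

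Promoter windows of the target genes matched 13 of the 20, with 14 windows. Ccn2, Fjx1, Ccdc80, Dock5, Arhgef17, Nuak2 and Asap1 had no window and were not searched. The TEAD motif was in the windows of 5 genes (Ankrd1, Axl, Ccn1, Crim1 and Ptpn14). That is 5 of the 14 windows, where 12.6% of the background windows held it. The Ankrd1 window was exonic over all of its 250 bases, and the Crim1 window over 28. The AP-1 motif TGANTCA was in 1 of the 14 windows, that of F3, and in 6.75% of the background windows. The F3 window held 2 AP-1 matches and 116 exonic bases. The Ccn1 window, which overlaps no annotated exon, is printed whole to set beside that of Ajuba (chr3:145649986-145650235, minus strand, GRCm38), with the motif in capitals 103 bases upstream of the start.
Ccn1: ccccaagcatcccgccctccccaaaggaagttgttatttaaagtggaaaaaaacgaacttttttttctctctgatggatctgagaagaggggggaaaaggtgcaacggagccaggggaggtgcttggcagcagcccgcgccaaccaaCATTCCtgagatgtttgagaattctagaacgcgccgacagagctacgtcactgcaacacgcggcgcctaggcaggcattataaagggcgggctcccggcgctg
Of these 5 genes, named here for their motif, Axl, a receptor kinase, had no call in mECC against normal cells (log2 fold change 0.00, edgeR adjusted p = 0.92), and Crim1, a BMP-binding membrane protein, was 6.24-fold lower there.

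**Figure D4:**
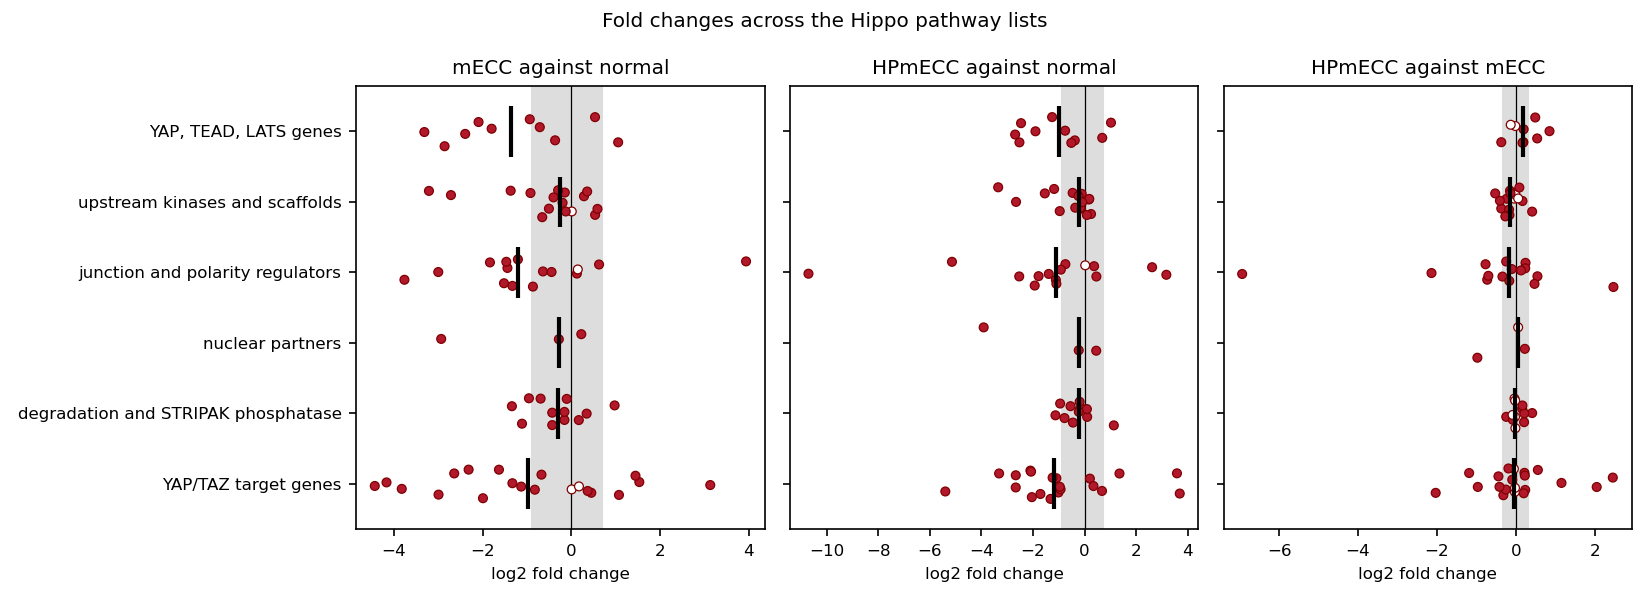
Log2 fold changes (horizontal axis, the first-named group over the second, with a different scale in each panel) of the genes of each Hippo list; filled points passed the edgeR threshold, thick lines are list medians and the grey band spans the quartiles of all genes tested. Medians of the 10 genes, of the junction list and of the target list lie below the band in both comparisons with normal cells, those of the kinase and phosphatase lists lie inside it.

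Upstream kinases and scaffolds, most of which act ahead of LATS, had a smaller median change than either LATS gene. Of 16 genes, 11 were lower and 4 higher in mECC than in normal cells (44.2% and 42.1% of all genes), and 12 were lower and 4 higher in HPmECC (43.3% and 43%). Their median log2 fold change was -0.25 in mECC and -0.20 in HPmECC, inside the quartiles of all genes. The falls were led by Wwc1, the scaffold KIBRA, from 539 ± 19.0 CPM in normal cells to 58.2 ± 3.23 CPM in mECC (9.26-fold) and 53.1 ± 5.49 CPM in HPmECC (10.2-fold). Rassf1, a scaffold of the MST kinases, went from 170 ± 3.06 to 25.8 ± 1.35 and 26.8 ± 2.69 CPM. The MST kinase genes themselves parted: Stk4 (MST1) was 1.90-fold lower and Stk3 (MST2) 1.22-fold higher in mECC than in normal cells. Nf2, the tumor suppressor merlin, was 1.45-fold higher in mECC, at 146 ± 4.34 against 101 ± 2.64 CPM, and Taok2, a kinase upstream of MST, 1.50-fold higher. Each named change had an edgeR adjusted p of at most 7.30e-07. Between the lines 3 were higher and 9 lower in HPmECC (33.8% and 34.5% of all genes), among them Stk38l (1.33-fold) and Map4k4 (1.12-fold) higher and Taok3 (1.44-fold) and Taok2 (1.32-fold) lower; the Map4k4 call was absent with limma on log2(TPM + 1) (0.01, adjusted p = 0.782).

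Of 15 junction and polarity regulators, 11 were lower and 3 higher in mECC, where 44.2% of all genes were lower and 42.1% higher, and 10 were lower and 4 higher in HPmECC, where 43.3% and 43% were. Their median log2 fold change was -1.21 in mECC and -1.09 in HPmECC, beside -0.02 and 0.00 over all genes. Crb3, an apical polarity protein, had 77.2 ± 2.14 CPM in normal cells and 5.69 ± 0.32 CPM in mECC, and 4 counts in all over the HPmECC libraries against 5722 in normal cells. Patj, its partner, went from 155 ± 7.27 CPM to 19.4 ± 1.41 CPM in mECC and 4.39 ± 0.48 CPM in HPmECC. Fat4, a giant cadherin, rose 15.3-fold in mECC, from 1.32 ± 0.23 to 20.1 ± 1.53 CPM, and 8.97-fold in HPmECC. Dchs1, the ligand of Fat4, rose 6.12-fold in HPmECC (9.75 ± 2.32 against 1.57 ± 0.43 CPM) and was not called in mECC (log2 fold change 0.14, edgeR adjusted p = 0.585). Epithelial markers were lower in the same comparisons, with the exception of Krt19 in mECC, and their part in the fall of Crb3 and Patj was not tested. Between the lines all 15 were called, 6 higher and 9 lower (68.3% of all genes called, 33.8% higher and 34.5% lower). Patj was 4.40-fold lower and Dchs1 5.55-fold higher in HPmECC, and Pals1, which joins Crb3 to Patj and is listed as Mpp5, was 1.46-fold higher in HPmECC.

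Of 5 nuclear partners that compete for or bind YAP and TEAD, 3 passed the filter on counts. Vgll3, a TEAD cofactor, was 7.65-fold lower in mECC and 15.0-fold lower in HPmECC (75.05 ± 6.39 CPM in normal cells, against 9.78 ± 0.49 in mECC and 5.01 ± 0.44 in HPmECC). Vgll4, a repressor that competes with YAP for TEAD, was 1.17-fold higher in mECC and 1.36-fold higher in HPmECC. Wbp2, a YAP cofactor, was 1.22-fold and 1.17-fold lower, calls that were lost with library totals (edgeR adjusted p = 0.182 and 0.328). Among 12 genes of YAP degradation and of the STRIPAK phosphatase, which restrains the MST kinases, 9 were lower and 3 higher in each comparison with normal cells, where 86.3% of all genes were called in mECC (44.2% lower) and 86.4% in HPmECC (43.3% lower). The median of these 12 was -0.30 in mECC and -0.21 in HPmECC, inside the quartiles of all genes. Btrc, a ubiquitin ligase subunit that recognises YAP, was 1.96-fold higher in mECC and 2.19-fold higher in HPmECC. Csnk1d, a kinase that marks YAP for this ligase, was 1.27-fold higher in mECC. Strn3 (2.53-fold) and Slmap (2.16-fold), both STRIPAK subunits, were lower in mECC. Between the lines 5 of the 12 were higher and 2 lower (33.8% and 34.5% of all genes), with Csnk1e 1.33-fold and Strn3 1.16-fold higher and Csnk1d 1.18-fold lower in HPmECC.

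Likeness between the 10 genes was described by correlation. Across the 12 libraries the log2 CPM of Tead1 was most like that of Ajuba (Pearson r = 0.997), Lats2 was most like Ajuba (r = 0.994), Yap1 most like Lats2 (r = 0.98), and Amotl2 and Wwtr1 were most like Tead4 (r = 0.99 for each). Lats1 was most like Tead1 (r = 0.99), and Tead2 and Tead3 were most like each other (r = 0.65). These values mostly restate the 3 group means, and the libraries share their group and their scaling, so they are given as a description. Wwtr1, Tead1, Tead4, Lats1, Amotl2 and Ajuba had the order normal, HPmECC, mECC from high to low, although Tead1, Ajuba and Lats1 differed by 1.14-fold or less between the lines. For Yap1 and Lats2 the CPM of the lines overlapped and the main fit called no difference, although some other settings did. Tead2 was highest in HPmECC, and Tead3 was highest in mECC.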

How the data were processed

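RNA-seq of 12 libraries (4 each of normal, mECC and HPmECC cells) was deposited as estimated counts and TPM per Ensembl gene. Per the submitters' processing notes, Trim Galore, STAR 2.6.1a, RSEM 1.3.1 and GRCm38 were used. The estimated counts of the authors are whole numbers, and the TPM values of the authors are scaled to library size and transcript length; depth ran from 16332060 to 26873582 counts. The strand setting is not given in the sources used here. Gene positions and names came from GENCODE mouse release 21, and promoter windows from RefSeq on GRCm38.p6.

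From the counts, CPM with TMM factors were computed and all 12 libraries were fitted with edgeR 4.0.16 (R 4.3.3, quasi-likelihood test, low counts removed by filterByExpr, 15283 genes, Benjamini-Hochberg adjustment over all of them, threshold 0.05). Standard errors are the log2 fold change over the root of F. Levels of different genes, shares and family sums used TPM. Alternatives were other scalings, filters, DESeq2 1.42.0, limma 3.58.1 on log2(TPM + 1) or log2(TPM + 0.1), a replicate block and leaving out each library. Scripts were tested on simulated data. The 10 genes and all lists were chosen with earlier results of these data known. In the other lists, up to 2 called genes with the largest rise and 2 with the largest fall in each comparison were named (groups without overlap, the higher one at 5 CPM or more), beside Ccn1, Ccn2 and Ankrd1. Stk4, Axl and Crim1 were named after their values were seen.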

Additional observations from a re-analysis of the deposited data

Results flagged for a closer look

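In 6 of 147 groups of 4 libraries a single library lay apart from the other 3 by more than Dixon's critical value, where chance gives about 1 group in 20. Among the 10 genes these were Tead3 in HPmECC replicate 2 (31.1 CPM, others 31.6 to 31.8) and Lats1 in normal replicate 1 (100.4 CPM, others 110 to 111). The share of Tead4 among TEAD transcripts was 2.44% in mECC replicate 2 and 2.09% to 2.14% in the others. Replicate 4 of mECC stood apart for Rassf1 (23.8 CPM, others 26.3 to 26.7), Dchs1 (2.13 CPM, others 1.62 to 1.67) and Ccn1 (318 CPM, others 290 to 294).

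Rbms3, a target gene, moved in opposite directions in the lines: its log2 fold change against normal cells was 1.07 in mECC and -0.96 in HPmECC. The difference of the lines was -2.03 (edgeR adjusted p = 2.65e-16), with 14.8 ± 0.21 CPM in normal cells, 31.1 ± 0.76 CPM in mECC and 7.60 ± 0.41 CPM in HPmECC (SD, n = 4).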

How the results depend on the processing

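For the 10 genes, 645 of 660 values under the alternatives kept their direction and their side of the threshold, and, depending on the setting, 7 to 9 of the 10 were called between the lines. All 10 stayed called against normal cells in every setting run. The Yap1 difference between the lines, not called, turned sign without mECC replicate 4 (log2 fold change 0.0013, range over libraries left out -0.023 to 0.0013). With CPM in place of TPM, the share of Yap1 was 60.2%, 65.8% and 62.5% in normal, mECC and HPmECC cells, of Tead1 71.4%, 36.1% and 34.1%, of Tead2 14.2%, 44.1% and 51.3%, and of Lats2 57.2%, 32.8% and 28.2%. In the same way Tead3 had 3.92% in normal cells and 17.5% in mECC, and Tead4 had 10.5% in normal cells. Nuclear partners called in HPmECC against normal cells numbered 3 of 3 tested, where 86.4% of all genes tested were called. With no filter or with DESeq2 the number was 5, as Vgll1 and Vgll2 entered. Both had few counts (Vgll1 24 over the normal libraries, Vgll2 33 over the HPmECC libraries). Replicate numbers showed no clear pairing of the libraries. Correlations of deviations were -0.03 to 0.08 for same-numbered libraries and -0.05 to 0.04 for differently numbered ones. In each comparison the highest value was that of a same-numbered pair, so a weak shared effect is not excluded. With the replicate block, the genes called were 10321 in place of 10440 between the lines, 13123 in place of 13184 in mECC and 13146 in place of 13200 in HPmECC against normal cells, and 8, 10 and 10 of the 10 genes were called as before.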

Other observations

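HPmECC replicate 4 had the lowest level of its group in 15 of the 20 target genes, and in 3 of the 10 Hippo genes (Amotl2, Ajuba and Lats2). In mECC replicate 1 was the lowest in 10 and replicate 4 the highest in 11 of the 20. These counts were made after the values were seen and are given without a test.

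Vgll1, a TEAD cofactor known from epithelia, held 24 counts over the normal libraries and 0 over both lines, and Vgll2 held 4, 2 and 33 counts in normal, mECC and HPmECC cells. Neither passed the filter on counts.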
